A study of Mus musculus with 15 samples.

Results

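Ttr, Alb, Rbp4 and Apoh encode plasma proteins made mainly by the liver, and their transcripts were followed in whole kidney of 15 mice. The 4 genes were taken by name from the 26823 genes with counts in all libraries, and they were chosen with results of these data known. Which measured values entered the choice is not recorded, and they are treated here as selected on their changes in Hyp against WT. Values of that contrast are a description and carry no test. Both comparisons with cFGF23-Hyp share libraries with that contrast, so their p-values are not independent of the choice. Values of these comparisons may have entered the choice as well. All 4 passed the filter on low counts, which kept 15789 genes.

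Each group held 5 mice aged 4 months. WT and Hyp mice received PBS. Hyp mice are labelled Phex_KO, and Hyp-Duk in the design text. The cFGF23-Hyp mice carried the same Phex_KO genotype and received AAV-cFGF23, a viral vector for the carboxy-terminal part of the hormone FGF23, as 1e12 vector genomes into a vein at 4 weeks of age. They were killed 3 months later. Phex encodes an endopeptidase, and its loss raises FGF23. No Phex_KO mouse with a control vector was analysed here, so the encoded protein and the vector cannot be told apart.

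Transthyretin, the product of Ttr, is a tetramer that carries thyroxine. It also holds retinol-binding protein, the product of Rbp4, in the circulation, because the complex is too large to pass the glomerular filter. Albumin, from Alb, is the most abundant plasma protein and carries fatty acids, hormones and metals. Apoh encodes beta-2-glycoprotein I, which binds anionic phospholipid. What is filtered of these proteins is taken up by megalin and cubilin in the proximal tubule, so their transcripts, and not the proteins, are the quantity measured here.

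The labelled tissue was met by its markers. The 17 kidney segment markers summed to 11612 to 13855 CPM (read counts scaled to the TMM-adjusted library size) over the 15 libraries. Phex had 0 to 3 counts in any library, WT included, so it does not check the genotypes. Total counts per library were 13083190 to 21829906.

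Results are given with and without 2 libraries, picked by their labels or their Ttr values. Other libraries stood apart from their groups in other values, as given below. The library labelled WT_5 is WT by title, but its genotype label is Phex_KO and its cell type label is Hyp. The library labelled cFGF23-Hyp_5 carries no conflict in its labels, and its Ttr lay within the range of WT_1 to WT_4. In addition, Hyp_4 held adrenal cortex transcripts. Its 6 adrenal markers summed to 1149 CPM, against at most 10.7 CPM in every other library.

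Promoter windows of 3 members are shown because the genes, all transcribed mainly in hepatocytes, differ in the letters near their start sites. They are RefSeq sequence on GRCm38.p6, from 250 bases before the start to 50 after it, and capitals mark the TATA box, TATAAA, searched on both strands. The windows are Alb at chr5:90460620-90460919 on the plus strand, Rbp4 at chr19:38124762-38125061 on the minus strand, and Apoh at chr11:108395047-108395346 on the plus strand.
Alb: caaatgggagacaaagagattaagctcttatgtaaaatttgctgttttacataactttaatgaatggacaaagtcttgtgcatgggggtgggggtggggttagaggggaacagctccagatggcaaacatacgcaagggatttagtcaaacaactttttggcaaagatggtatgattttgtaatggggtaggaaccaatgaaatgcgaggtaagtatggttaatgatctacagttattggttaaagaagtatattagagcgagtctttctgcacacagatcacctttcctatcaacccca
Rbp4: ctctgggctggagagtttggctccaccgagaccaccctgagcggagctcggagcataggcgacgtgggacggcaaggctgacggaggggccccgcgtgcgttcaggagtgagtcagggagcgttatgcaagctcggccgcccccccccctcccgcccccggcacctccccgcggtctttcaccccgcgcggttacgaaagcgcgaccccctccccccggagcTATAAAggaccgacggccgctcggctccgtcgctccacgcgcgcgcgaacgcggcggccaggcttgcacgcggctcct
Apoh: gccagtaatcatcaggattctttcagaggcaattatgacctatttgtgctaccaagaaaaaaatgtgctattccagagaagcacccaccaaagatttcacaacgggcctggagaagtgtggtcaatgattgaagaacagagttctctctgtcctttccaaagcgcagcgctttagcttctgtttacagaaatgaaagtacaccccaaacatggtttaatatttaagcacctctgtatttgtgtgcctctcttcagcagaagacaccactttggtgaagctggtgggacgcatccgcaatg

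The Rbp4 window held 1 TATA box, 28 bases before the start. TATAAA was not found in the Alb or Apoh window, nor in a second Rbp4 window that RefSeq lists. Of 32851 promoter windows, 13.6% held it, so the match describes the letters only.

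Ttr (ENSMUSG00000061808, chromosome 18, 20798337 to 20807378, plus strand, coordinates as deposited) was the member that varied most with group. In WT_1 to WT_5 it was at 44.3, 75.0, 61.5, 79.4 and 463 CPM. In Hyp_1 to Hyp_5 it was at 1222, 1853, 1164, 917 and 921 CPM. In cFGF23-Hyp_1 to cFGF23-Hyp_5 it was at 695, 822, 1263, 870 and 55.5 CPM. All Hyp libraries thus lay above all WT libraries, and 4 of the 5 cFGF23-Hyp libraries above every WT library. The fifth, cFGF23-Hyp_5, fell within the range of WT_1 to WT_4, and WT_5 lay between these and the Hyp libraries.

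**Figure D1:**
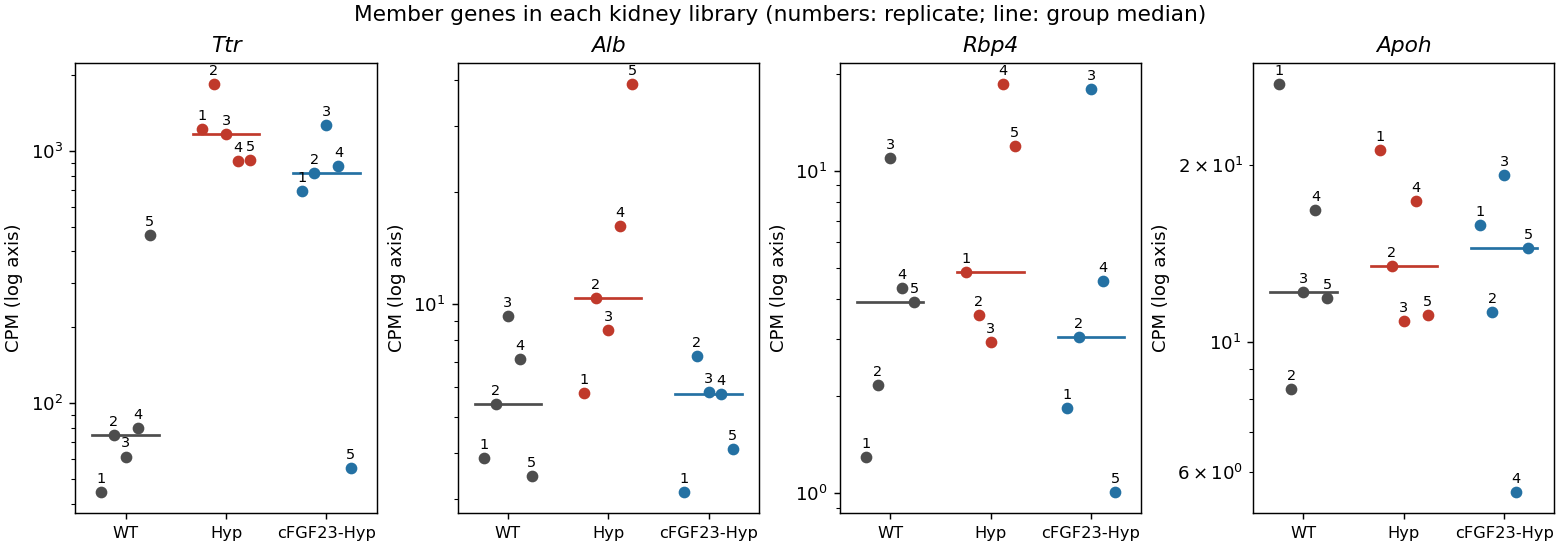
Expression of Ttr, Alb, Rbp4 and Apoh (CPM, log axes that differ between panels) in each of 15 kidney libraries, with the replicate number at each point and a line at the group median. Ttr separates WT_1 to WT_4 (44.3 to 79.4 CPM) from Hyp (917 to 1853 CPM), while the groups overlap for the other 3 genes.

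The mean of Ttr was 145 ± 178 CPM in WT, 1215 ± 382 in Hyp and 741 ± 438 in cFGF23-Hyp (SD, n = 5 each). In Hyp against WT, the contrast treated here as behind the choice of genes, the fitted log2 change was 3.07 ± 0.70 (SE). Per kilobase of transcript, Ttr ranked 17 to 32 among the tested genes in the Hyp libraries and 37 to 47 in cFGF23-Hyp_1 to cFGF23-Hyp_4. It ranked 813 to 1310 in WT_1 to WT_4, 80 in WT_5 and 1057 in cFGF23-Hyp_5. In bulk tissue, more cells that express a gene and more RNA per cell cannot be told apart.

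In cFGF23-Hyp against Hyp, Ttr had a log2 change of -0.71 ± 0.65 (SE, adjusted p = 0.689, edgeR quasi-likelihood test, Benjamini-Hochberg over all tested genes). An exact two-sided permutation test over the 5 and 5 mice gave p = 0.0794, where the design allows no p below 0.00794. The groups overlapped, as cFGF23-Hyp_3, at 1263 CPM, exceeded 4 of the 5 Hyp libraries. Without WT_5 and cFGF23-Hyp_5 the change was -0.41 ± 0.23.

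In cFGF23-Hyp against WT, Ttr had a log2 change of 2.36 ± 0.68 (adjusted p = 0.668, edgeR), and the exact permutation test gave p = 0.0397. Without WT_5 and cFGF23-Hyp_5 the change was 3.81 ± 0.27. These are the highest WT and the lowest cFGF23-Hyp library for Ttr and were left out with those values known, so this value is a description and no p is given for it. Without WT_5 alone, whose labels conflict and whose Ttr value was likewise known, the change was 3.51 ± 0.58, also a description without a p. Both comparisons share libraries with Hyp against WT, and 8 permutation tests were run in all.

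**Figure D2:**
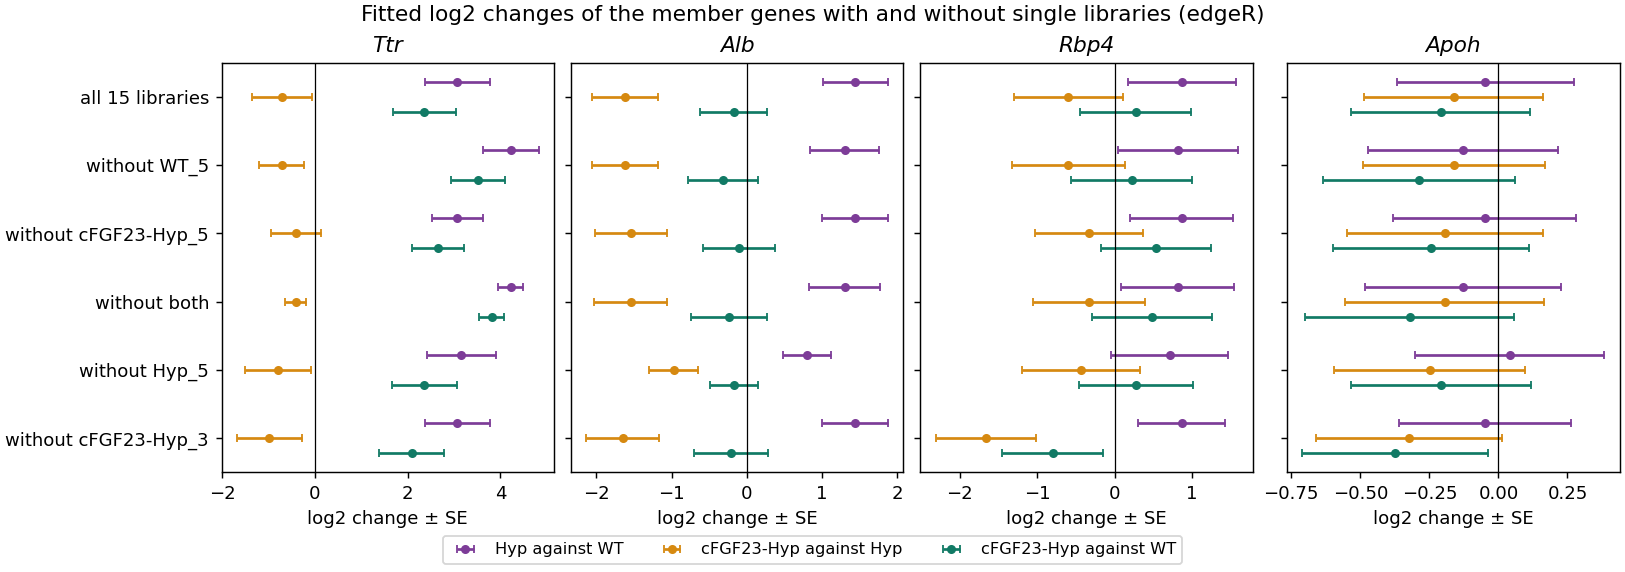
Fitted log2 changes (edgeR, bars are standard errors) of the 4 genes in 3 comparisons, with all 15 libraries and with named libraries left out. Ttr in cFGF23-Hyp against WT moves from 2.36 to 3.81 when WT_5 and cFGF23-Hyp_5 are left out, and Rbp4 in the same comparison turns from 0.28 to -0.80 without cFGF23-Hyp_3.

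Alb (ENSMUSG00000029368, chromosome 5, 90608756 to 90624461, plus strand) was a low transcript in every group. In WT_1 to WT_5 it was at 3.88, 5.39, 9.31, 7.14 and 3.47 CPM. In Hyp_1 to Hyp_5 it was at 5.79, 10.4, 8.52, 16.2 and 39.0 CPM. In cFGF23-Hyp_1 to cFGF23-Hyp_5 it was at 3.13, 7.26, 5.81, 5.74 and 4.10 CPM. The highest value by far was in Hyp_5, followed by Hyp_4, and Hyp overlapped both other groups.

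The fitted log2 change of Alb in Hyp against WT was 1.45 ± 0.43 (SE), and 0.80 ± 0.32 without Hyp_5. In cFGF23-Hyp against Hyp it was -1.62 ± 0.44 (adjusted p = 0.232, edgeR), with an exact permutation p of 0.0238. Without Hyp_5 that change was -0.97 ± 0.33 (adjusted p = 0.534). In cFGF23-Hyp against WT it was -0.17 ± 0.44 (adjusted p = 0.999), with an exact permutation p of 0.722. The authors' deposited table lists Alb in cFGF23-Hyp against Hyp at -1.62 with an adjusted p of 0.174.

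Most transcripts that mark hepatocytes were highest in Hyp_5, as Alb was. Of 17 such markers with counts, 15 had their highest value there. The full sum did not follow Alb: it was highest in cFGF23-Hyp_4 (315 CPM) and cFGF23-Hyp_3 (221 CPM), with 179 in Hyp_5 and 151 in Hyp_4, and most of it was Hpd. The hepatocyte markers other than Hpd, of which 16 of 17 were listed, summed to 1.57 to 4.18 CPM in WT, 1.84 to 16.1 in Hyp and 1.77 to 2.66 in cFGF23-Hyp. Hpd, set aside after the values were seen, averaged 160 ± 33.8 CPM in WT, 130 ± 29.2 in Hyp and 157 ± 105 in cFGF23-Hyp (SD, n = 5 each), well above the other markers. Hyp_5 ranked first and Hyp_4 second in both Alb and the sum without Hpd.

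Of 34 clotting and protease inhibitor genes with counts, near-identical serpin copies included, 23 were highest in Hyp_5. Their sum, led by Serpinf2, Kng2 and Pzp, was not: it was 1026 CPM in Hyp_5 and 993 in Hyp_4, within 991 to 1277 over all libraries. The next 3 genes were picked from this list after their values were seen. Serpina3k, a serpin of liver, was at 6.59 CPM in Hyp_5 and 2.49 in Hyp_4, with at most 0.993 elsewhere. Ahsg, which encodes fetuin-A, was at 5.60 and 1.94 CPM there and at most 0.665 elsewhere. Fgb, a fibrinogen chain, was at 3.50 and 1.27 CPM and at 0 in 8 libraries. Their part in the Alb values was not tested.

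**Figure D3:**
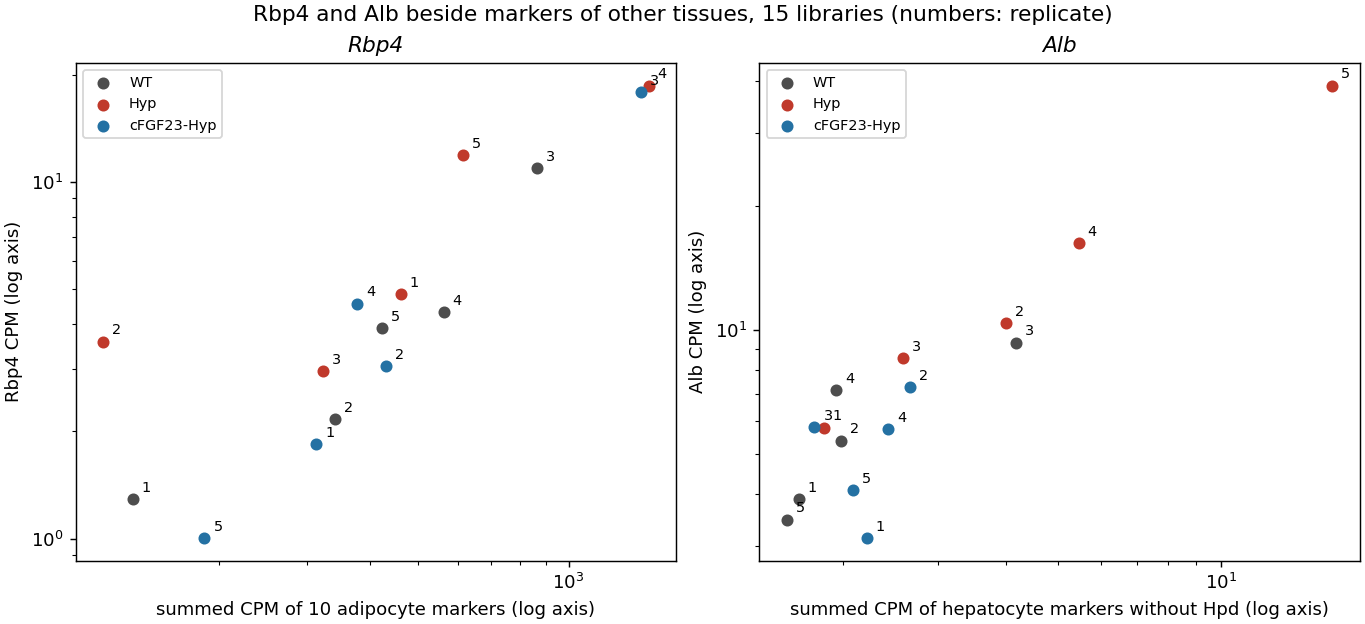
Rbp4 beside the summed CPM of 10 adipocyte markers (left) and Alb beside the summed CPM of hepatocyte markers without Hpd (right), 1 point per library, log axes, replicate number at each point. Hyp_4 and cFGF23-Hyp_3 are highest on both axes of the left panel, and Hyp_5 (39.0 CPM of Alb) on both axes of the right panel.

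Ttr did not share this order. Per kilobase, Ttr exceeded Alb 46.6- to 416-fold in the Hyp libraries, 224- to 438-fold in cFGF23-Hyp_1 to cFGF23-Hyp_4 and 264-fold in WT_5. The ratio was 13.0 to 27.5 in WT_1 to WT_4 and 26.8 in cFGF23-Hyp_5. Hyp_5, with the most Alb, had the lowest ratio of its group. Across 15 libraries the Pearson correlation of log2 CPM was 0.33 for Ttr and Alb and 0.64 for Alb and Rbp4, as a description of libraries that share depth and composition.

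Other tissues known for Ttr were looked at by their markers. The choroid plexus markers, 7 of 8 listed, summed to 720 to 840 CPM in WT, 771 to 871 in Hyp and 782 to 1059 in cFGF23-Hyp. Most of that sum was Enpp2 and Folr1, which averaged 395 ± 33.7 and 346 ± 16.5 CPM in WT (SD, n = 5), and the sums of the groups overlapped. With both genes at this level in WT kidney, the sum cannot show choroid plexus transcripts or their absence. Of 8 islet markers, 2 were listed, Chga and Pcsk2, and their sum was at most 0.253 CPM outside Hyp_4, where it was 57.3 CPM. Hyp_4 also held adrenal cortex transcripts, and the islet hormone genes, such as Ins1 and Gcg, were not listed. The source of Chga and Pcsk2 in Hyp_4 was not tested. Of 9 exocrine pancreas markers 4 were listed, and their sum of 28.7 to 116.6 CPM, highest in cFGF23-Hyp_3, was nearly all Cela1. The 3 others summed to at most 0.667 CPM.

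Rbp4 (ENSMUSG00000024990, chromosome 19, 38105077 to 38113729, minus strand) varied within every group. In WT_1 to WT_5 it was at 1.29, 2.17, 10.9, 4.32 and 3.90 CPM. In Hyp_1 to Hyp_5 it was at 4.84, 3.57, 2.94, 18.6 and 11.9 CPM. In cFGF23-Hyp_1 to cFGF23-Hyp_5 it was at 1.84, 3.05, 17.9, 4.56 and 1.00 CPM. Each group held 1 or 2 libraries above 10 CPM, and all groups overlapped.

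The fitted log2 change of Rbp4 was 0.87 ± 0.70 (SE) in Hyp against WT and 0.35 ± 0.71 without Hyp_4. In cFGF23-Hyp against Hyp it was -0.59 ± 0.71 (adjusted p = 0.757, edgeR), with an exact permutation p of 0.302. In cFGF23-Hyp against WT it was 0.28 ± 0.72 (adjusted p = 0.999), with an exact permutation p of 0.968. That last change turned to -0.80 ± 0.65 without cFGF23-Hyp_3 (adjusted p = 0.657).

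Adipocyte transcripts followed the same libraries as Rbp4, which fat cells also express. The summed CPM of 10 adipocyte markers, a list written after the Rbp4 values were seen, was 134 to 865 in WT, 117.1 to 1446 in Hyp and 187 to 1395 in cFGF23-Hyp. Hyp_4, cFGF23-Hyp_3, Hyp_5 and WT_3 were the 4 highest libraries in both Rbp4 and this sum. Adiponectin (Adipoq) was at 53.5 CPM in Hyp_4 and 42.9 in cFGF23-Hyp_3, against 2.38 to 28.5 CPM elsewhere.

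The plasma carriers Hp, Orm1 and Trf, set together here because of their values, were likewise highest in Hyp_4 and cFGF23-Hyp_3. Not all carriers were: Cp was highest in cFGF23-Hyp_4 (106 CPM) and Afm in WT_2 (61.9 CPM). Trf, which encodes the iron carrier transferrin, was at 80.7 and 71.3 CPM there and at most 47.2 elsewhere. Orm1, an acute-phase carrier, was at 8.49 and 13.1 CPM there and at most 5.75 elsewhere. The part of fat in the Rbp4 values was not tested.

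Apoh (ENSMUSG00000000049, chromosome 11, 108234180 to 108305222, plus strand) showed no order by group. In WT_1 to WT_5 it was at 27.6, 8.30, 12.2, 16.8 and 11.9 CPM. In Hyp_1 to Hyp_5 it was at 21.3, 13.5, 10.9, 17.4 and 11.1 CPM. In cFGF23-Hyp_1 to cFGF23-Hyp_5 it was at 15.8, 11.2, 19.3, 5.53 and 14.4 CPM. The group ranges overlapped, and WT_1 held the highest value.

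The log2 change of Apoh was -0.05 ± 0.32 (SE) in Hyp against WT, and 0.04 ± 0.34 without Hyp_5. It was -0.16 ± 0.32 in cFGF23-Hyp against Hyp (adjusted p = 0.867, edgeR) and -0.21 ± 0.32 in cFGF23-Hyp against WT (adjusted p = 0.999). The exact permutation p was 0.603 and 0.659. Apoh overlaps Prkca on the opposite strand at one end. Strand use in the counting is not given in the sources used here, so reads in the overlap cannot be assigned with certainty.

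Per kilobase, Ttr stood far above the other members in every group. Its median was 63.2 CPM per kilobase in WT, 982 in Hyp and 693 in cFGF23-Hyp. Apoh followed with 7.64, 8.44 and 9.06 CPM per kilobase. Rbp4 had medians of 2.90, 3.60 and 2.27, and Alb of 2.30, 4.43 and 2.45, and these 2 genes overlapped in each group.

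None of the 4 genes was called by edgeR with all 15 libraries, at an adjusted p below 0.05, in either comparison with cFGF23-Hyp. Neither was any other gene: 0 of 15789 were called in cFGF23-Hyp against Hyp (0.0%; 1647 at an unadjusted p below 0.05, 116 by DESeq2 and 2 by limma-voom). In cFGF23-Hyp against WT 0 were called (0.0%; 905 at an unadjusted p below 0.05, 6 by DESeq2 and 0 by limma-voom). In Hyp against WT 54 of 15789 genes were called (0.342%), a share given only as background. With so few calls among all genes, 0 calls in a list named below is no result about that list.

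The genes most like Ttr over the 15 libraries were Evl, Spns3, Nat8f2, Bex4, Plscr1 and Ly6f, with Pearson correlations of log2 CPM from 0.92 to 0.97. They head a ranking of 11972 protein-coding genes, and the correlations carry no test. Nat8f2 ranged from 27.7 to 34.5 CPM over WT_1 to WT_4, 53.9 in WT_5, 86.2 to 108 in Hyp, 63.8 to 71.9 in cFGF23-Hyp_1 to cFGF23-Hyp_4 and 33.5 in cFGF23-Hyp_5. Spns3 ranged from 3.09 to 4.13 CPM over WT_1 to WT_4, 6.34 in WT_5, 7.94 to 9.95 in Hyp, 7.36 to 13.1 in cFGF23-Hyp_1 to cFGF23-Hyp_4 and 4.56 in cFGF23-Hyp_5.

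Within groups, the likeness was lower without WT_5 and cFGF23-Hyp_5. Correlations of the deviations from the group means were 0.80 to 0.94 over 15 libraries and 0.11 to 0.76 over the 13 others. The changes of these genes were smaller than that of Ttr: 0.29 ± 0.08 for Plscr1 and 1.66 ± 0.37 for Ly6f in Hyp against WT, on the log2 scale (SE). That of Nat8f2 was 1.46 ± 0.19. These genes were picked for their likeness to Ttr, so no test of them is given. Nat8f2 has close paralogs that could share reads.

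**Figure D4:**
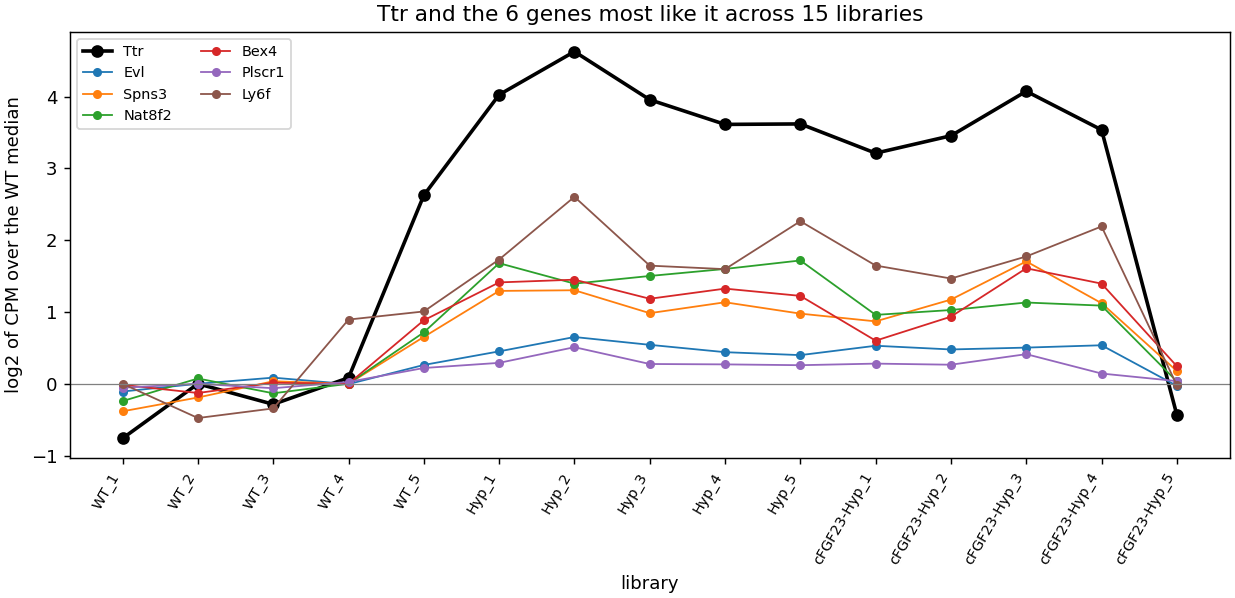
Log2 of CPM over the WT median for Ttr (black) and the 6 genes most like it, library by library. All 7 lines are higher in every Hyp library than in WT_1 to WT_4 and in cFGF23-Hyp_5, and Ttr spans the widest range.

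The nearest genes to Alb were Nfkb2, Marveld1 and Itga9, with correlations of 0.81 to 0.83. Those to Rbp4 were Cavin1, a component of caveolae, Anxa2 and Plaat3, with 0.93 to 0.94, and their deviations from the group means correlated at 0.93 for each without WT_5 and cFGF23-Hyp_5. Cavin1 was highest in Hyp_4 (60.3 CPM) and cFGF23-Hyp_3 (48.8 CPM), as Rbp4 was. Tmem45b, Ptrhd1 and Urah were nearest to Apoh, with 0.75 to 0.82.

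Both main receptors for filtered proteins were abundant, and neither was called. Lrp2, which encodes megalin, averaged 2080 ± 144 CPM in WT, 2182 ± 140 in Hyp and 2138 ± 246 in cFGF23-Hyp (SD, n = 5 each). Cubn, for cubilin, averaged 302 ± 26.0, 337 ± 24.4 and 337 ± 63.3 CPM. Their log2 changes in cFGF23-Hyp against Hyp were -0.03 ± 0.09 and 0.00 ± 0.11 (SE; adjusted p = 0.917 and 1.000, edgeR).

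Fcgrt, the neonatal Fc receptor that recycles albumin, was at 108 to 196 CPM in all libraries but cFGF23-Hyp_3, where it was at 332 CPM. Stra6, a receptor for retinol-binding protein, was at 0.488 to 1.62 CPM. Of the 15 uptake genes, 0 were called in any of the 3 comparisons with all libraries, and medians were 0.09, 0.03 and 0.08, beside 0.00, 0.01 and 0.02 over all tested genes. Lrpap1, a chaperone of megalin, averaged 637 ± 78.5 CPM in WT kidneys and 491 ± 20.5 CPM in those of Hyp mice. Scarb1, a lipoprotein receptor picked here because of its values, reached 112 CPM in Hyp_4 and 9.35 to 17.8 CPM elsewhere.

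Retinoid genes, downstream of Rbp4, also gave 0 calls among 16 tested, beside 0.0% to 0.342% of all tested genes. Dhrs3, a retinal reductase, was at 153 ± 21.6 CPM in WT, 175 ± 49.8 in Hyp and 161 ± 32.6 in cFGF23-Hyp. Rxra, a retinoid receptor, was at 163 ± 11.4, 152 ± 4.66 and 151 ± 3.23 CPM (SD, n = 5 each). The median of the 16 log2 changes was 0.24 in Hyp against WT. It was -0.13 for cFGF23-Hyp against Hyp, and -0.08 when cFGF23-Hyp was set against WT. Cyp26b1, which degrades retinoic acid and was likewise picked because of its values, reached 77.8 CPM in Hyp_4 and 48.1 in Hyp_5, against 0.929 to 25.0 elsewhere.

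Thyroid hormone genes, the other ligand system of transthyretin, gave 0 calls among 11, beside 0.0% to 0.342% of all tested genes. Crym, which encodes a thyroid hormone binding protein of the cytosol, was at 83.1 ± 3.68, 68.1 ± 6.90 and 85.3 ± 24.0 CPM in WT, Hyp and cFGF23-Hyp. Klf9, a target of thyroid hormone, was at 223 ± 56.4, 174 ± 15.9 and 219 ± 23.8 CPM (SD, n = 5 each). Its log2 change in cFGF23-Hyp against Hyp was 0.33 ± 0.13 (adjusted p = 0.419, edgeR).

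The transcription factors that drive liver genes were expressed in kidney and gave 0 calls among 9, beside 0.0% to 0.342% of all tested genes. Hnf4a was at 941 ± 97.3, 845 ± 91.2 and 865 ± 133 CPM in the 3 groups. Cebpa was at 58.7 ± 7.05, 54.4 ± 13.5 and 59.7 ± 20.4 CPM (SD, n = 5 each).

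Other plasma proteins divided by library. Of 9 tested carriers, 7 had positive changes and 2 negative in each comparison, with medians of 0.32, 0.18 and 0.43 and 0 calls. Of all tested genes, 50.6%, 51.6% and 54.5% had positive changes. In Hyp against WT, 5 carriers were positive and 4 negative without Hyp_4 (median 0.12), and likewise without Hyp_5 (median 0.29). In cFGF23-Hyp against Hyp, 8 were positive without Hyp_4 and 7 without Hyp_5. Apom, a carrier of sphingosine-1-phosphate, ranged from 60.5 to 74.9 CPM over WT_1 to WT_4, 95.4 in WT_5, 101 to 116 in Hyp, 109 to 194 in cFGF23-Hyp_1 to cFGF23-Hyp_4 and 60.3 in cFGF23-Hyp_5. As for Ttr, WT_1 to WT_4 and cFGF23-Hyp_5 were the 5 lowest libraries and WT_5 came next. Its log2 change in cFGF23-Hyp against WT was 0.68 ± 0.21 (adjusted p = 0.668, edgeR), and 0.95 ± 0.15 without WT_5 and cFGF23-Hyp_5.

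Itih1, a subunit of inter-alpha-inhibitor, had log2 changes against WT of 0.53 ± 0.20 in Hyp and 0.44 ± 0.20 in cFGF23-Hyp (adjusted p = 0.863 for cFGF23-Hyp, edgeR). Serpinf2, the alpha-2-antiplasmin gene and the most abundant of its list, had a change of -0.50 ± 0.13 in Hyp against WT. Without WT_5 and cFGF23-Hyp_5, 5 list genes fell under the threshold in Hyp against WT, namely Itih1, Serpinf2, Apcs, Slc34a1 and Calb1. Of all genes in that fit, 228 of 15900 (1.43%) did so. The 4 such list genes in cFGF23-Hyp against WT were Apom, Itih1, Fetub and B2m, beside 177 of all 15900 genes (1.11%). B2m, the partner of Fcgrt, had a change of 0.63 ± 0.17 with all libraries (adjusted p = 0.668) and of 0.90 ± 0.13 without those 2. As the 2 libraries were left out with expression values known, these counts are not read as tests. With all 15 libraries, 0 of the 17 tested clotting and protease inhibitor genes were called, with medians of 0.28, -0.45 and 0.05. Of 8 tested apolipoproteins 0 were called either, and Apoe was at 106 ± 18.7, 150 ± 31.4 and 149 ± 48.4 CPM (SD, n = 5 each).

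**Figure D5:**
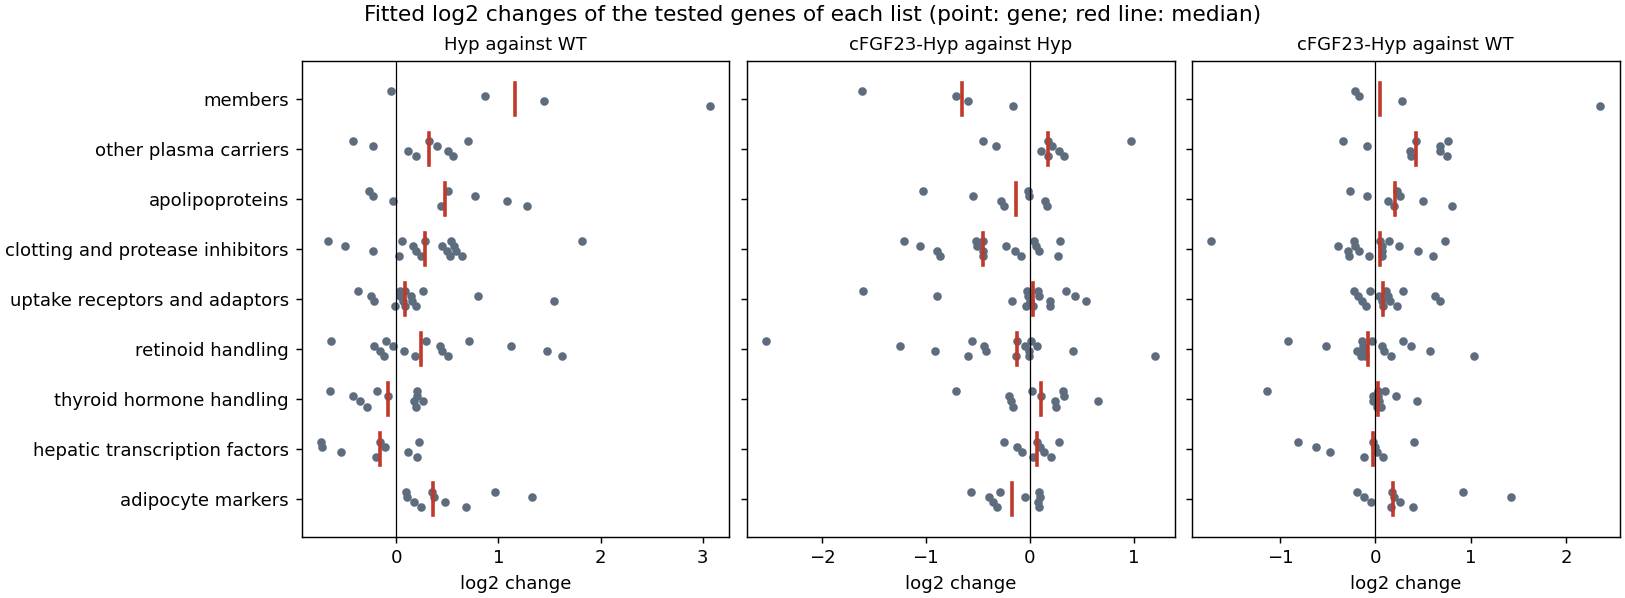
Fitted log2 changes (edgeR, all 15 libraries) of tested genes in each list, 1 point per gene and a red line at the list median, in 3 comparisons with their own horizontal axes. The 4 member genes are the top line, and Ttr is the rightmost point of Hyp against WT at 3.07.

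Over the 15 lists without the 4 genes, 116 genes were tested and 0 were called in any comparison with all libraries. By edgeR, 32 of the 116 had an unadjusted p below 0.05 in Hyp against WT (27.6%, against 13.4% of all tested genes). In cFGF23-Hyp against Hyp there were 26 (22.4%, against 10.4%), and in cFGF23-Hyp against WT 10 (8.62%, against 5.73%). DESeq2 called 12, 3 and 0 of them, beside 2.25%, 0.735% and 0.038% of all tested genes. By limma-voom 1, 0 and 0 were called, beside 0.481%, 0.0127% and 0.0%. The lists were chosen with earlier results of these data known. These shares and counts are therefore a description and no test of the lists.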

How the data were processed

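Whole-kidney RNA was sequenced from 15 mice, 1 library each, with NEBNext Ultra kits per the labels' protocols. The authors deposited 2 tables with raw read counts per gene, a normalized signal (each column a constant times the counts), gene length, and log2 fold changes with p-values of their own. What aligner and counter were used is not stated in the labels or headers, nor is strand use. Per the submitters' processing notes the build is mm10, but deposited coordinates differ from GRCm38 and are printed as deposited. Tables were joined on gene ID, and 20 per-sample columns were not used. Entries without a name (0.219% to 0.363% of counts) were left out.

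Counts were tested with edgeR 4.0.16 under R 4.3.3 (quasi-likelihood F test, TMM, filterByExpr, 1 fit of 15 libraries with a mean per group). The threshold for a call was 0.05 on the Benjamini-Hochberg adjusted p. Log2 CPM used a prior count of 2. DESeq2 1.42.0, limma-voom (limma 3.58.1), other filters, fits of 2 groups, the replicate number as a block and libraries left out were alternatives. Permutation tests were exact and two-sided. The steps were tested on simulated data. Libraries of a group differed by a chi-square of at least 8.77 per degree of freedom, so none was a copy. The labels describe mice and give no batch. With 1 library per mouse, p-values measure the spread between libraries, in which mouse, dissection and preparation cannot be told apart. Reads carry no molecular identifiers.

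The 4 genes and 15 lists (200 entries, 182 matched by symbol, 2 by synonym) were chosen with earlier results of these data known. Named genes are the members, Phex, 4 receptors, up to 4 genes per list (called, otherwise the most abundant) and the genes most correlated with each member at a mean log2 CPM of at least 1. Adrenal, liver and fat genes named by library, the carriers Hp and Orm1, and genes called without WT_5 and cFGF23-Hyp_5, were chosen after their values were seen. Some genes that this rule names are not reported here.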

Additional observations from a re-analysis of the deposited data

Results flagged for a closer look

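Within a group of 5, a library was picked out where its gap to the nearest other exceeded 0.71 of the group's range (Dixon's test at 95%). Chance alone does so for about 1 in 20 groups if values are normally distributed. The rule was applied to CPM without a log, where skewed values can change that rate. The adipocyte sum and the sum without Hpd were also set up after values were seen. Ttr in WT_5, at 463 CPM, lay above the other WT libraries by 0.916 of the range. Rbp4 in cFGF23-Hyp_3 was at 17.9 CPM, and the adipocyte marker sum of the same library was 1395 CPM. The adrenal cortex marker sum was 1149 CPM in Hyp_4 and 10.7 CPM in cFGF23-Hyp_2. The sum of hepatocyte markers without Hpd was 16.1 CPM in Hyp_5 and 4.18 CPM in WT_3.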

How the results depend on the processing

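For the 4 genes, 8 changes with cFGF23-Hyp were recomputed under 25 alternatives each, 200 in all. Of these, 197 kept direction and side of the threshold, where 6 sign changes smaller than 1 standard error counted as none. With 0 genes called by the main fit in either comparison, a kept side of the threshold carries little information. Some alternatives left out only a library of the third group. The tally also does not measure size: Rbp4 in cFGF23-Hyp against Hyp counted as kept at -1.66 without cFGF23-Hyp_3, against -0.59 with all libraries. Ttr in cFGF23-Hyp against WT changed side without WT_5 and cFGF23-Hyp_5 (3.81) and without these and cFGF23-Hyp_3 (3.61). These libraries were left out with their values known, so both changes of side are a description and no call of Ttr. Rbp4 in cFGF23-Hyp against WT turned to -0.80 without cFGF23-Hyp_3, and ranged from -0.80 to 0.90 with 1 library left out. The Ttr difference of Hyp against WT was 4.07 with WT_5 moved to Hyp, following its genotype label, 4.22 without WT_5 and cFGF23-Hyp_5 or these and cFGF23-Hyp_3, and 2.84 to 4.22 with 1 library left out.

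Calls in Hyp against WT were 356 by DESeq2, 516 with 2 groups only, 97 with WT_5 in Hyp, 228 without WT_5 and cFGF23-Hyp_5, 1527 without these and cFGF23-Hyp_3, and 7 to 345 with 1 library left out. In cFGF23-Hyp against Hyp they were 116 by DESeq2, 2 by limma-voom, 67 and 63 without those 2 or 3 libraries, and 0 to 25 with 1 left out. In cFGF23-Hyp against WT they were 6 by DESeq2, 1 with WT_5 in Hyp, 177 and 583 without those libraries, and 0 to 3 with 1 left out. List genes called in Hyp against WT were 12 by DESeq2, 1 by limma-voom, 13 with 2 groups only, 1 with WT_5 in Hyp, 5 and 24 without those libraries, and 0 to 12 with 1 left out. In cFGF23-Hyp against Hyp DESeq2 called 3, and in cFGF23-Hyp against WT 4 and 8 were called without those libraries. The cause of these moves was not tested.

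Mice were not treated as paired by number: deviations correlated above 0.1 in 4 of 15 pairs with the same number, and 3 of 15 libraries correlated best with their own number. With the replicate block, 15 genes were called in Hyp against WT and 0 in the others, and Ttr changes were 3.43, -0.62 and 2.80. Depth limits Alb and Rbp4, some of whose libraries hold few counts (13 for Rbp4 in cFGF23-Hyp_5).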
